A study of Mus musculus with 6 samples.

Results

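The comparison set 1 array of stimulated NF-IL6 knockout (KO) cells against 1 array of stimulated wild-type cells, 2 of the 6 arrays of the series, chosen by the sample titles. NF-IL6 is the older name of C/EBPβ, the transcription factor encoded by Cebpb. The cells were mouse peritoneal exudate cells, also labelled peritoneal macrophages, and every sample carried the strain label C57BL/6. The KO array came from cells without NF-IL6 after 12 h of lipopolysaccharide (LPS) with interferon-γ, and its counterpart from wild-type cells (WT) after the same agents, with no time in its label. A stimulated array of a knock-in line labelled KI(LAP) (KI, also 12 h) and the untreated KO and WT arrays were read beside them. The labels gave neither the sex, age and number of the animals nor how the alleles were made, and they did not say whether an array was 1 mouse or a pool. A genotype effect and an effect of the unlabelled WT time cannot be told apart. With 1 array a side there was no replicate and no test, so differences are given by size only, and the number of arrays limits the precision of every value.

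C/EBPβ is a basic leucine-zipper factor that dimerises with other C/EBP proteins and binds palindromic DNA sites. Its gene gives an activating protein called LAP and a shorter form called LIP that lacks most of the activating part. In macrophages it is known for driving genes of bacterial defence, acute-phase proteins, arginase and prostaglandin E2 synthesis, often with NF-κB. LPS signals through Toll-like receptor 4, and its pairing with interferon-γ is a standard stimulus of classical macrophage activation.

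Signals are deposited MAS5 intensities. Signals under 98, the 40th percentile of all values, were set to that floor before log2 differences were taken, and a fold against such a signal is a lower bound. The median signal was 151 on the stimulated KO array and 164 on the stimulated WT array, with 59.0% of probe sets above the floor in KO and 61.2% in WT. Of 9343 probe sets measured, 303 (3.24%) were at least 2-fold lower and 241 (2.58%) at least 2-fold higher in KO. With the arrays centred on their medians instead, 226 were lower and 344 higher. Counted once per gene, 225 of 6767 named genes (3.32%) were lower and 186 (2.75%) higher, and these 2 shares are the background for the count in each gene list. Past 4-fold the numbers were 24 lower and 9 higher, and past 8-fold 8 lower and 1 higher. For 74.4% of the genes the 2 arrays lay within 0.5 on the log2 scale.

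**Figure D1:**
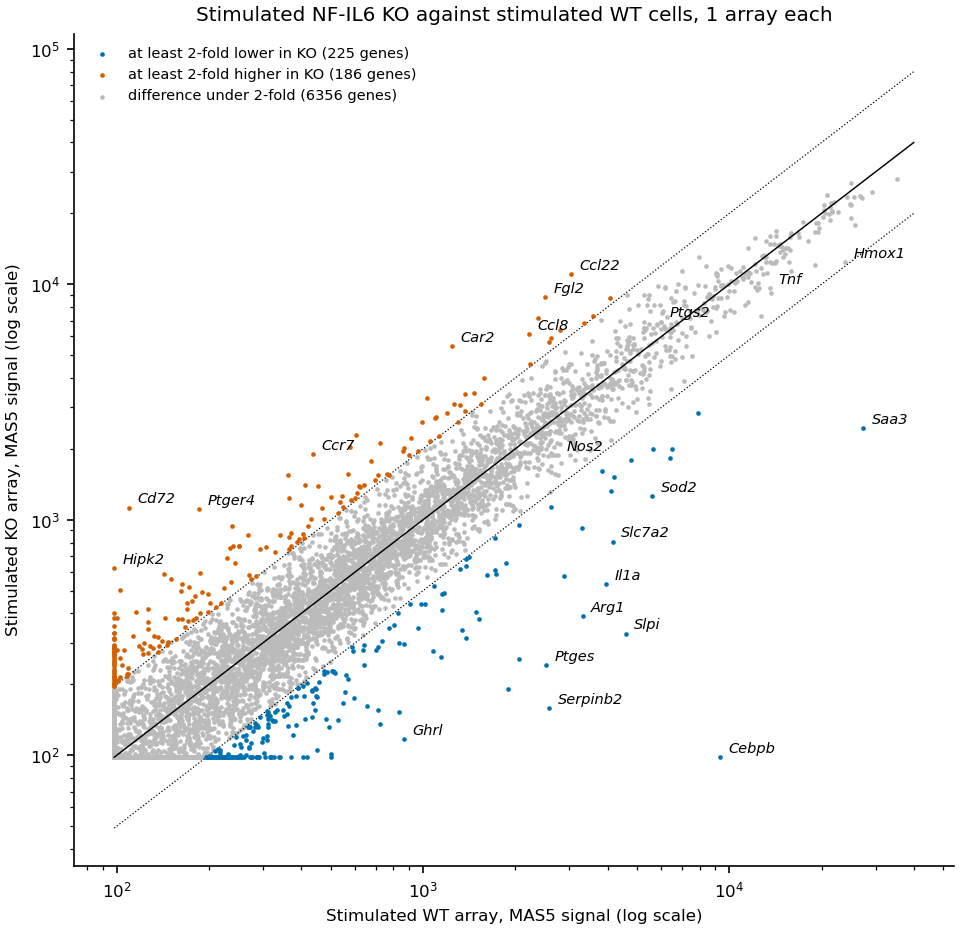
Signal of each named gene on the stimulated KO array (vertical) against the stimulated WT array (horizontal), both on log axes, with values under the floor drawn at the floor. The solid line is equality and the dotted lines mark 2-fold; 225 genes lie below the lower line, led by Cebpb, Serpinb2, Slpi and Saa3, and 186 above the upper one, led by Cd72.

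The deleted gene checked the labels. Cebpb had a signal of 59.0 on the stimulated KO array, under the floor, against 9329 on the stimulated WT array, which made it at least 95.2-fold lower. The other members of the C/EBP family and their dimer partners stayed within 2-fold. Cebpa, the C/EBP of early myeloid differentiation, gave 2255 in KO and 2336 in WT cells. Cebpd, which is induced by inflammatory signals like Cebpb, gave 816 in KO and 782 in WT cells. Of 9 family members and partners measured, 1 (Cebpb itself) was lower and 0 were higher.

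Macrophage markers were present on both arrays. Lyz2, lysozyme M, had 13501 in KO and 15211 in WT cells, and Adgre1, which encodes F4/80, had 6126 in KO and 5562 in WT cells. Of 10 macrophage markers measured, 0 were under the floor on either array, 3 were at least 2-fold lower in KO (Cd14, Csf1r and Msr1) and 0 were higher, and their summed signal was 55152 in KO against 66758 in WT cells. The 9 dendritic cell markers measured summed to 47354 in KO and 25995 in WT cells, with 0 under the floor on either array. The 11 mesothelial and fibroblast markers summed to 2987 in KO and 6670 in WT cells, with 5 under the floor in KO and 2 in WT. The 7 markers of resident peritoneal macrophages summed to 5635 in KO and 32986 in WT cells, with 3 under the floor in KO and 4 in WT. Saa3 (2443 in KO and 27343 in WT) and Serpinb2 (158 in KO and 2579 in WT) were the 2 lower members, and 0 were higher. Both are described with the results and made nearly all of the gap. Cd9 gave 2868 in KO and 2928 in WT cells, and Gata6, Icam2, Alox15 and F5 were near or under the floor on both arrays. Sums were 2545 in KO and 3543 in WT cells for 9 neutrophil markers, 6241 in KO and 5918 in WT cells for 4 monocyte markers, 6272 in KO and 6163 in WT cells for 9 B cell markers, and 593 in KO and 743 in WT cells for 4 T cell markers. The largest part of the B cell sum was Blnk (3211 in KO and 2252 in WT), while Ighm gave 1147 in KO and 1964 in WT cells. Plac8 was the largest part of the monocyte sum (3967 in KO and 3524 in WT). Within that list Ccr2 gave 860 in KO and 267 in WT cells, and Fn1 1086 in KO and 1958 in WT cells. The neutrophil sum depended on the probe sets used. Csf3r had a log2 difference of 0.09 by the one used but -1.69 and -1.58 by its others, and the other probe set of Lcn2 gave -3.37. Sparser lists summed to 440 in KO and 99.9 in WT cells for 2 NK cell markers, with 0 under the floor in KO and 2 in WT. That WT sum therefore holds no signal above the floor. For 3 endothelial markers the sums were 1298 in KO and 666 in WT cells. The 4 mast cell markers summed to 1348 in KO and 1708 in WT cells, with 2 under the floor in KO and 1 in WT. The 2 erythroid markers summed to 937 in KO and 1247 in WT cells, with 0 under the floor in KO and 1 in WT. The 1 eosinophil marker was under the floor on both. Xist, the X-inactivation RNA, was 241 in KO and 641 in WT cells. Of Y-linked genes, Eif2s3y gave 267 in KO and 82.4, under the floor, in WT cells by a probe set of the kind that related genes share, and Kdm5d and Uty were under the floor on both. The part of cell makeup or animal sex in the differences below was not tested, and in such bulk RNA fewer cells of a type and less RNA per cell cannot be told apart.

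The 20 largest differences in each direction were taken among the 2672 genes whose higher stimulated array reached the 75th percentile of all values, a signal of 531.8. On the low side Cebpb stood first at -6.57, followed by Serpinb2 at -4.03, and the high side ran from 3.36 for Cd72 to 1.67 for Twf2. Promoters of 4 of the genes lowest in KO are shown because each holds the C/EBP-type sequence TTGCNNAA, set in capitals on either strand, in the RefSeq window of 300 bases from 250 before to 50 after a start (GRCm38.p6). The windows lie at chr1:107511173-107511472 on the plus strand for Serpinb2, and on the minus strand at chr2:164356458-164356757 for Slpi, chr7:46715627-46715926 for Saa3 and chr6:123289822-123290121 for Clec4e.
Serpinb2: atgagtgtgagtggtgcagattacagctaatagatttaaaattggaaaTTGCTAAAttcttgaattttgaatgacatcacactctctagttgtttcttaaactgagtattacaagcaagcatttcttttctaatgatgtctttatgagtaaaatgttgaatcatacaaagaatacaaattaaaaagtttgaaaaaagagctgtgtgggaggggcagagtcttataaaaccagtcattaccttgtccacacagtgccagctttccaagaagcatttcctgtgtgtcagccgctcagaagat
Slpi: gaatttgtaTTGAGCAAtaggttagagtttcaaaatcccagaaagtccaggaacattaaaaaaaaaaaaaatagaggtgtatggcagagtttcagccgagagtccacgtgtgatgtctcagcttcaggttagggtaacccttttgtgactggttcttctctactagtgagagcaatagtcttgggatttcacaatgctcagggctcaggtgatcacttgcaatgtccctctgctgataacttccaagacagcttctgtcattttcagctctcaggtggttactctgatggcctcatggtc
Saa3: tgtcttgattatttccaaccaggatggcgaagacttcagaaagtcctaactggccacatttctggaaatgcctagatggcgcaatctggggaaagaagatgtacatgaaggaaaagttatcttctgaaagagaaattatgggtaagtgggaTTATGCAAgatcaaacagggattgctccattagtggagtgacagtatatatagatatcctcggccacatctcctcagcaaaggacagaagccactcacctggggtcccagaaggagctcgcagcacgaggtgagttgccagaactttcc
Clec4e: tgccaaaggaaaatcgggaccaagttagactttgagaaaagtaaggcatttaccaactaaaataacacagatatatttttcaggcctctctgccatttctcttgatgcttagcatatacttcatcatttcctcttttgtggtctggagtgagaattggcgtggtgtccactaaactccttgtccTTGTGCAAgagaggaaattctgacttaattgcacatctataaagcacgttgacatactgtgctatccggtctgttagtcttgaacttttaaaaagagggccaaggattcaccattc

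In these windows the first base of the match stood at -202 in Serpinb2, -241 in Slpi, -99 in Saa3 and -66 in Clec4e. Among the 20 genes lowest in KO, 17 had a RefSeq window and 6 of those (35.3%) had a match, the other two being Cd302 and Mgst1. Among the 20 highest in KO, 14 had a window and 0 a match. Over all genes at least 2-fold lower in KO the share was 15.6% (28 of 180), over those at least 2-fold higher 10.7% (16 of 149), over all genes measured 10.9% (592 of 5433) and over all promoters of RefSeq listed 12.2%. The looser sequence TTNCNNAA, which contains the first, was in 42.2% of lower genes, 43.0% of higher genes and 37.2% of all genes measured. For contrast, the NF-κB-type sequence GGG, any 5 bases and CC was in 72.8% of lower, 73.2% of higher and 70.8% of all measured genes, and the interferon-response type, GAAA and GAAA with 2 bases between, in 3.89%, 6.04% and 3.81%. Both strands were searched in each case. A match describes the letters of a window and is not a binding site.

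Secreted defence and acute-phase proteins were the first group. Saa3, a serum amyloid A made by macrophages, had a signal of 2443 in stimulated KO, 5879 in stimulated KI and 27343 in stimulated WT cells, 11.2-fold lower in KO than in WT. Slpi, the secretory leukocyte protease inhibitor, gave 328 in KO, 906 in KI and 4592 in WT cells, 14.0-fold lower in KO. For both genes the KO array was the lowest of the 3 stimulated arrays and the KI array lay between. S100a8, a subunit of the antimicrobial protein calprotectin and also a neutrophil marker, was 3.88-fold lower, at 277 in KO and 1073 in WT cells. Of 18 acute-phase and defence genes measured, 3 were at least 2-fold lower (these 3) and 1, Saa2, was higher, with a median log2 difference of -0.21 beside 0.00 for all genes. Saa2 rested on a probe set of the kind that several related genes share, and its other probe set gave -0.24.

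Lcn2, the iron-sequestering lipocalin and a familiar C/EBP target in mouse, depended on the probe set. The probe set with the higher mean log2 over the 6 arrays, used for Lcn2 in every list here, gave 412 in KO and 398 in WT cells. The other gave 114 in KO and 1174 in WT cells, so it was the brighter one on the stimulated WT array. Its log2 difference was -3.37, the widest gap of any pair of probe sets with both above the floor. Which of them reports the transcript better was not tested.

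In prostaglandin E2 synthesis the last enzyme was lower in KO, while cyclooxygenase was within 2-fold. Ptges, the inducible prostaglandin E synthase, had 242 in stimulated KO, 290 in stimulated KI and 2525 in stimulated WT cells, 10.4-fold lower in KO. Ptgs2, the inducible cyclooxygenase that supplies its substrate, had 6938 in KO, 4747 in KI and 5975 in WT cells. Ptgis, the prostacyclin synthase, was 3.73-fold lower at 132 in KO and 493 in WT cells. Of 10 prostaglandin synthesis genes measured, 2 were lower (Ptges and Ptgis) and 0 higher, with a median of -0.18. On the receptor side Ptger4, which encodes the EP4 receptor for prostaglandin E2, was 6.00-fold higher in KO, at 1113 in KO, 919 in KI and 185 in WT cells. It was the 1 gene past 2-fold of 6 eicosanoid receptors, whose median was -0.38.

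Arginine uptake and arginase were lower, while the inducible nitric oxide synthase was within 2-fold. Arg1, which splits arginine to ornithine and urea, had 389 in KO, 132 in KI and 3320 in WT cells, 8.55-fold lower in KO. Slc7a2, the cationic amino acid transporter that brings arginine into activated macrophages, had 807 in KO, 985 in KI and 4156 in WT cells, 5.15-fold lower in KO. Nos2, the inducible nitric oxide synthase, had 1888 in KO, 2579 in KI and 2766 in WT cells, a log2 difference of -0.55. The KO and KI arrays were both well under WT for Arg1 and Slc7a2, while for Nos2 the KI array was close to WT. Of 14 genes of arginine and nitric oxide metabolism, 2 were lower and 0 higher, with a median of -0.29.

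Receptors for microbial and modified ligands gave the most lower members of any receptor group. Clec4e, which encodes Mincle, the receptor for mycobacterial cord factor, was 9.87-fold lower, at 191 in KO, 484 in KI and 1886 in WT cells. Marco, a scavenger receptor for bacteria, was 8.03-fold lower in KO, at 256 in KO and 2055 in WT cells. The KI array gave 2266 for Marco, above WT, so this gene was low in KO alone among the stimulated arrays. Cd14, the co-receptor of LPS, was 2.78-fold lower at 2845 in KO and 7915 in WT cells. Msr1 (2.39-fold), Clec4d (2.38-fold) and Cd93 (2.27-fold) completed the 6 of 19 receptors that were lower in KO. Clec4a2, an inhibitory lectin, was the 1 higher member, at least 3.62-fold, and the median of the list was -0.38.

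Cytokines and colony-stimulating factors divided by gene. Il1a, interleukin 1α, was 7.43-fold lower, with 532 in KO, 2302 in KI and 3956 in WT cells. Il1b, interleukin 1β, had 3870 in KO and 7088 in WT cells, a log2 difference of -0.87. Il1r1, the signalling receptor of both, was under the floor in KO and at least 2.78-fold lower. Il12a, the p35 subunit of interleukin 12, was likewise under the floor in KO and at least 2.93-fold lower, at 20.1 in KO and 287 in WT cells. Il12b, the p40 subunit that pairs with it, went the other way, 2.16-fold higher in KO at 8779 in KO, 2989 in KI and 4066 in WT cells. Csf3, granulocyte colony-stimulating factor, was 2.23-fold lower, while Il6 (-0.60) and Tnf (-0.50) stayed within 2-fold. Csf1r, the receptor for macrophage colony-stimulating factor, was 2.66-fold lower at 1799 in KO and 4787 in WT cells.

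Among chemokines, 3 neutrophil-attracting CXC members were lower and 4 CC members higher in KO. Cxcl1 was 4-fold lower, at 380 in KO, 618 in KI and 1520 in WT cells. Cxcl2 was 3.68-fold lower, at 406 in KO and 1493 in WT cells, and Cxcl5, under the floor in KO, was at least 4.27-fold lower. These are the ligands of the neutrophil receptor CXCR2 in mouse. Cxcl13, a B cell chemokine, was also under the floor in KO. Cxcl10, an interferon-induced ligand of CXCR3, was instead 2.21-fold higher, with 5707 in KO and 2579 in WT cells, and Cxcl9, another CXCR3 ligand, had 13144 in KO and 12797 in WT cells. Of 9 CXC chemokines, 4 were lower and 1 higher, with a median of -0.06, or -0.61 over those above the floor on at least 1 of the 2 stimulated arrays.

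Of 13 CC chemokines and relatives, 4 were higher and 0 lower, with a median of 0.32. Ccl22, a ligand of CCR4 made by mature dendritic cells and macrophages, was 3.63-fold higher, with 11071 in KO, 6199 in KI and 3049 in WT cells. Ccl12, a mouse ligand of CCR2, was 3.53-fold higher at 2044 in KO and 579 in WT cells. Ccl8 and Ccl4 were 2.77-fold and 2.51-fold higher. Ccl2 (-0.47) and Ccl5 (-0.18), which were among the brightest chemokines, stayed within 2-fold. Among 15 receptors for chemokines and other attractants, Ccr7 (4.35-fold), Ccr2 (3.22-fold) and the complement receptor C3ar1 (2.34-fold) were higher. The formyl peptide receptor Fpr2 (3.58-fold) was lower.

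Genes of dendritic cell maturation and costimulation had the highest medians of the lists with at least 6 measured members. Ccr7, which guides mature dendritic cells to lymph nodes, had 1897 in KO, 335 in KI and 436 in WT cells. Its KO array stood alone, with KI and WT close together. Fscn1, the actin bundler of dendritic extensions, Cd83, a maturation marker, and Cd86, a ligand of CD28, were 2.34-fold, 2.26-fold and 2.03-fold higher in KO. Of 13 costimulation and maturation genes, 5 were higher and 0 lower, with a median of 0.57. Among the 9 dendritic markers measured, 5 were higher and 0 lower, with a median of 1.18, but Flt3, a defining receptor of that lineage, gave 262 in KO and 414 in WT cells, and Itgax, which encodes CD11c, gave 1526 in KO and 1630 in WT cells. The lists share Ccr7, Ccl22, Fscn1 and Cd83. In untreated cells the median of the dendritic list was 0.15, with 0 members lower and 1 higher. Whether more dendritic cells were present was not tested.

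Of 22 type I interferon-response genes, 3 were at least 2-fold higher and 0 lower, with a median of 0.34. The difference was above 0 in 18 of the 22, beside 2822 of all 6767 genes, and no test was made of these shares. Ifit3, which binds foreign RNA complexes, was 2.53-fold higher at 3999 in KO and 1582 in WT cells, Cmpk2, a mitochondrial nucleotide kinase, 2.48-fold and Mx2 2.05-fold. The other probe set of Cmpk2 gave a log2 difference of 0.22. Rsad2, which encodes viperin, stayed just under the threshold at 0.96, with 8977 in KO and 4620 in WT cells. The guanylate-binding proteins and immunity-related GTPases, which interferon-γ induces strongly, lay closer to equality: of 11, 1 was higher, 0 lower, and the median was 0.11. Stat4, which signals for interleukin 12, was 3.80-fold higher, the 1 gene past 2-fold of 12 IRF and STAT factors. The 13 MHC class II genes had 0 lower and 0 higher, with a median of 0.24, and the 21 NF-κB subunits and regulators 0 and 0, with a median of 0.03.

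Proteases, inhibitors and clotting factors were lower in 6 of 32 members and higher in 1, with a median of -0.36. Serpinb2, plasminogen activator inhibitor 2, had 158 in KO, 93.3 in KI and 2579 in WT cells, 16.3-fold lower in KO. F10, coagulation factor X, was 3.26-fold lower at 1997 in KO and 6517 in WT cells, and its other probe set gave a log2 difference of -1.51. Mmp14, a membrane-bound matrix protease, was 3.09-fold lower in KO, with 1325 in KO, 3927 in KI and 4096 in WT cells. Like Marco, it was low in KO alone. Adam8, a sheddase of leukocytes, was the higher member at 2.04-fold.

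Antioxidant genes were led by Sod2, the mitochondrial superoxide dismutase, which was 4.43-fold lower, with 1261 in KO, 2874 in KI and 5593 in WT cells. It was the 1 gene past 2-fold of 24, but the list's median was -0.38, and Hmox1, haem oxygenase 1, stood at -0.95 with 12374 in KO and 23930 in WT cells. Mgst1, a membrane glutathione transferase, was 4.35-fold lower in KO and had about the same signal in KI (262 in KO, 252 in KI and 1141 in WT cells). The aryl hydrocarbon-inducible oxidase Cyp1b1 was 5.45-fold lower, at 153 in KO and 834 in WT cells.

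Matrix genes were also lower in some cases. Dcn, the proteoglycan decorin, was 4.99-fold lower, with 578 in KO, 794 in KI and 2880 in WT cells. Sparc and Col3a1 were under the floor in KO and at least 4.12-fold and 2.82-fold lower. These 3 of 11 mesothelial and fibroblast markers were lower and 0 were higher, with a median of -0.40, and in untreated cells 4 were lower in KO, with a median of -0.88. Col1a1 counted as within 2-fold at -0.84, though its other probe set gave -2.41, with 194 in KO and 1030 in WT cells. Wt1, which marks mesothelium, was under the floor in KO (55.6) and just over it in WT (138). Serpinh1, the collagen chaperone, was 4.59-fold lower at 155 in KO and 711 in WT cells. The part of stromal cells in these differences was not tested.

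The list of S phase and mitosis genes also held the D-type cyclins. Of its 46 measured members 4 were lower and 3, all D-type cyclins, higher, with a median of -0.09. Under the floor were 15 members in KO and 8 in WT. In untreated cells the same list had a median of 0.61, with 13 higher and 0 lower in KO, where 6.74% of all genes were higher. The D-type cyclins, which start the cycle in response to growth factors, were higher in KO: Ccnd1 4.25-fold, Ccnd2 3.24-fold and Ccnd3 2.27-fold. Ccnd1 had 1541 in KO, 1698 in KI and 362 in WT cells, though its other probe set gave a log2 difference of 0.50. Tk1, the thymidine kinase of S phase, was under the floor in KO and at least 5.11-fold lower, with 93.0 in KO and 501 in WT cells. Rrm2, Cdk1 and Cks1b, genes of DNA synthesis and mitosis, were lower by 2.17-fold and, against the floor, by at least 2.13-fold and 2.33-fold. Other members were within 2-fold, among them Plk1 (0.70), Pcna (0.20) and Mki67 (-0.18).

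The gene highest in KO over WT was Cd72, an inhibitory receptor of B cells and macrophages, 10.3-fold higher with 1126 in KO, 1041 in KI and 110 in WT cells. The 9 B cell markers measured gave 1 higher, Pax5, and 0 lower, with a median of 0.02, and Cd79a, a defining B cell gene, had 644 in KO and 910 in WT cells. Hipk2, a nuclear kinase, was under the floor in WT and at least 6.37-fold higher. Car2, carbonic anhydrase II, was 4.39-fold higher at 5446 in KO, 1758 in KI and 1240 in WT cells. Fgl2, a membrane prothrombinase, was 3.54-fold higher at 8839 in KO and 2498 in WT cells. Kdr, the VEGF receptor of endothelium, was 4.12-fold higher, while the other two endothelial markers measured, Pecam1 (0.35) and Vwf (0.68), were within 2-fold. The actin regulators Marcks (3.79-fold) and Twf2 (3.19-fold) and the actin-sensing coactivator Mrtfa (3.98-fold) were also among the 20 highest.

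**Figure D2:**
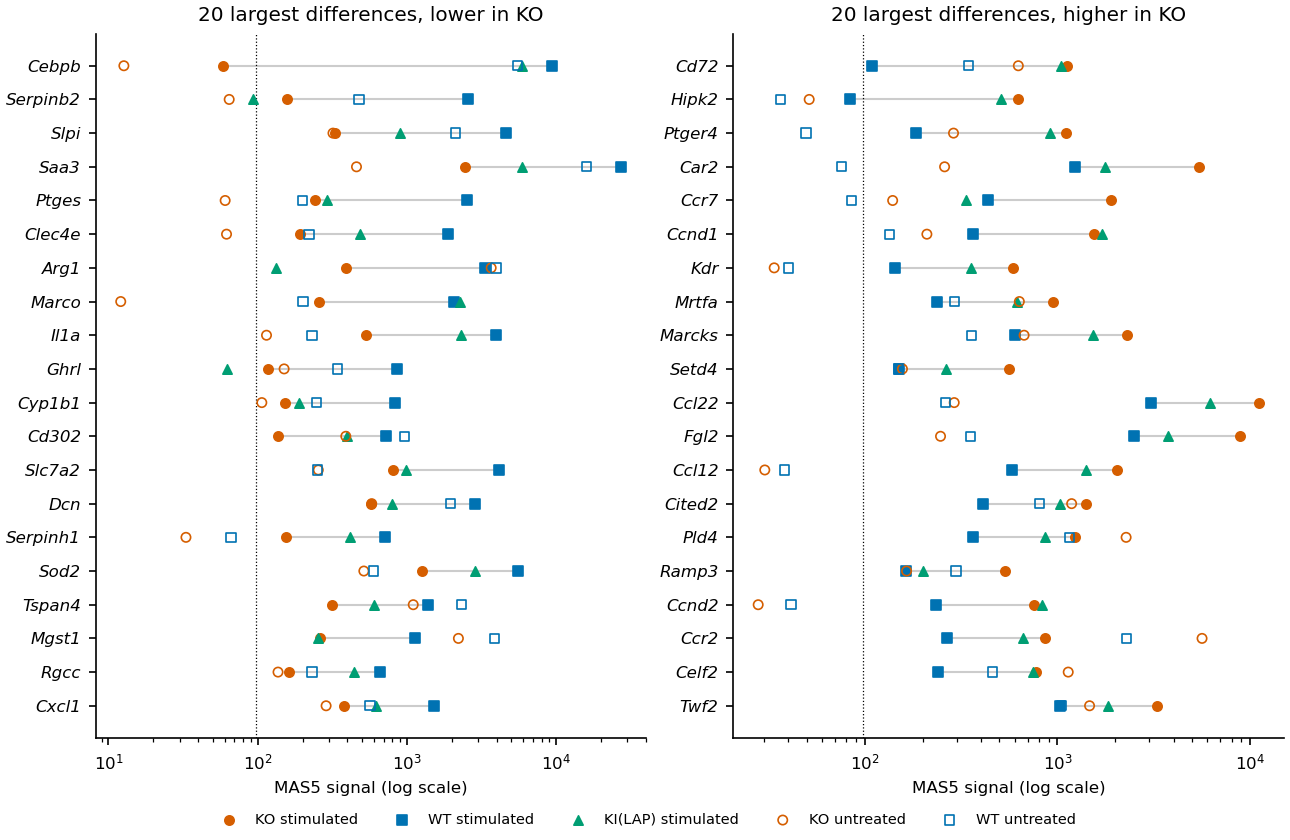
MAS5 signal on a log axis for the 20 named genes lowest (left) and highest (right) in stimulated KO over stimulated WT cells, 1 array per symbol; filled symbols are stimulated cells, open symbols untreated cells, and the dotted line is the floor of 98. The grey line joins the stimulated KO and WT arrays; the stimulated KI triangle is at or beyond the KO side for Serpinb2, Arg1, Ghrl and Mgst1 on the left and for Ccnd1 and Ccnd2 on the right, and lies nearer to WT for several genes, among them Cebpb, Il1a, Marco and Rgcc on the left and Ccr7 and Car2 on the right.

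A list of 30 genes tied to C/EBPβ in the literature on macrophages and liver had 29 measured members. Of these 9 were lower (Saa3, Ptges, Arg1, Marco, Slc7a2, Cd14, Fcgr2b, Msr1 and Csf3) and 1, Il12b, higher, with a median of -0.55 beside 0.00 over all genes, where 3.32% were lower. Lcn2 and Csf3r counted there as within 2-fold, though other probe sets of each were at least 2-fold lower. The list was chosen with earlier results known, so its count is no independent evidence. In untreated cells the same 29 had a median of -0.09, with 5 lower and 3 higher. Broad cell functions lay near equality. Among 45 oxidative phosphorylation genes 0 were lower and 1 higher, among 29 proteasome subunits 0 and 0, and among 22 ribosomal proteins 0 and 0, with medians of 0.04, -0.02 and -0.13. Of 36 lysosomal genes 0 were past 2-fold, and 28 were below 0, beside 3165 of all 6767 genes, with a median of -0.20.

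**Figure D3:**
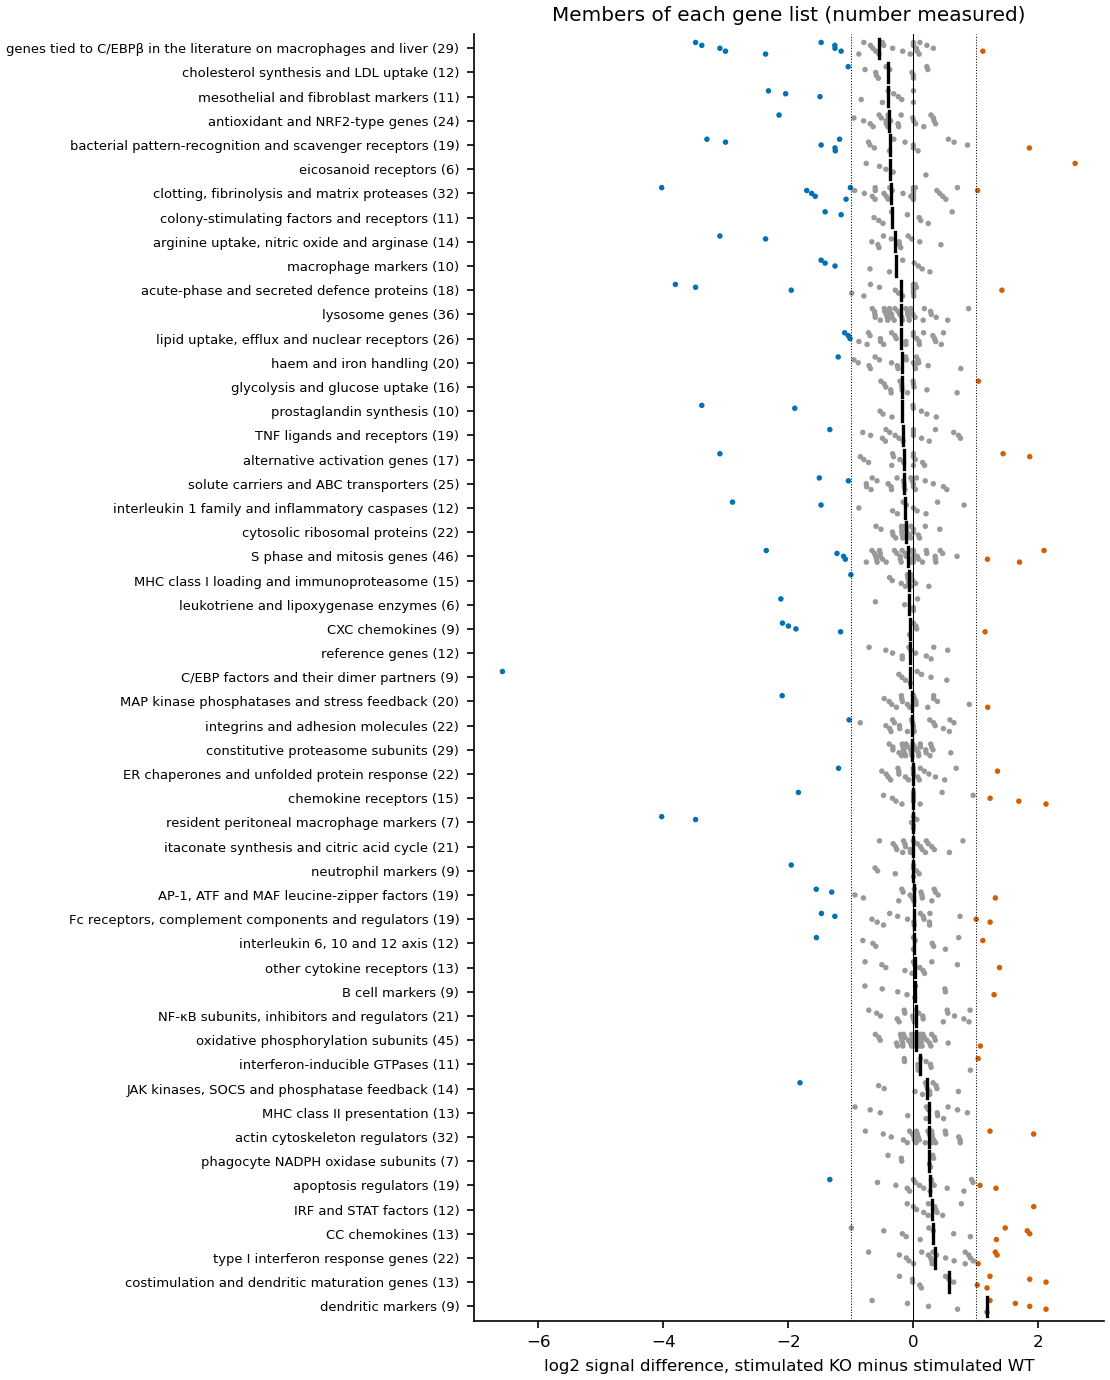
Log2 signal difference, stimulated KO minus stimulated WT, for the measured members of each gene list with at least 6 of them; blue and orange points are at least 2-fold lower and higher in KO, the black tick is the median and the dotted lines mark 2-fold. Medians run from -0.55 for the C/EBPβ literature list to 1.18 for the dendritic markers, and in most lists a few members lie far out while the rest stay between the dotted lines.

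Part of the difference was present before stimulation. The untreated KO and WT arrays share no array with the stimulated pair, and there 283 genes (4.18%) were lower and 456 (6.74%) higher in KO. Of the 225 genes lower in stimulated KO, 44 (19.6%) were also at least 2-fold lower untreated, 10 were higher and 171 lay between. Of the 186 higher in stimulated KO, 44 (23.7%) were also higher untreated, 3 were lower and 139 lay between. Across the 6767 genes the 2 differences had Pearson's r = 0.30 and Spearman's rho = 0.28, a description over genes, which are not independent replicates.

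The genes lowest in stimulated KO differed in this respect. Saa3 was lower untreated as well, with 460 in untreated KO against 16042 in untreated WT cells, a log2 difference of -5.12 that was larger than the stimulated one. Slpi (320 in untreated KO and 2119 in untreated WT cells), Dcn (582 in untreated KO and 1967 in untreated WT cells) and Serpinb2, under the floor in untreated KO, were also lower in both states. Arg1, by contrast, had 3674 in untreated KO and 3949 in untreated WT cells, and Slc7a2 had 255 in untreated KO and 251 in untreated WT cells, so their difference appeared on the stimulated arrays. Sod2 (-0.21 untreated) and Cxcl2 (0.20 untreated) behaved like these. Of the 20 lowest genes, 13 were also at least 2-fold lower untreated, and of the 20 highest, 5 were also higher untreated (Ptger4, Car2, Mrtfa, Ccr2 and Celf2).

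**Figure D4:**
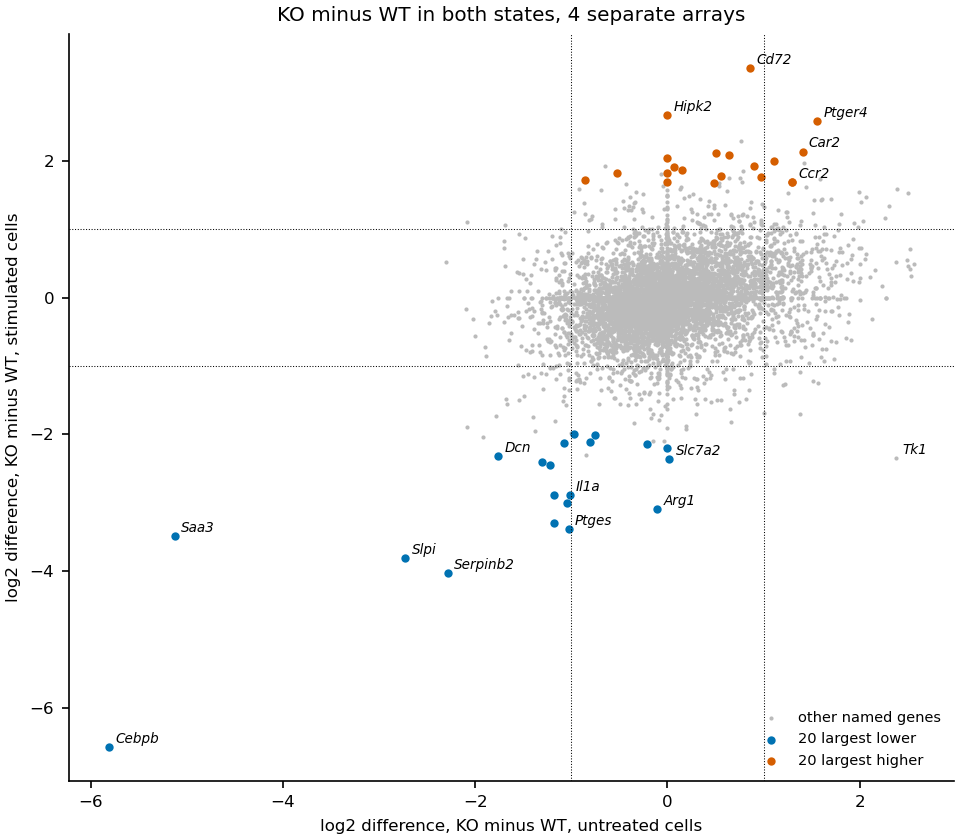
Log2 difference KO minus WT in stimulated cells (vertical) against the same difference in untreated cells (horizontal) for each named gene, from 4 separate arrays; blue and orange points are the 20 lowest and 20 highest genes of the stimulated comparison and dotted lines mark 2-fold. Cebpb, Saa3, Slpi and Serpinb2 lie far to the lower left, Arg1 and Slc7a2 are low in stimulated cells alone, and Tk1 is high untreated and low stimulated.

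The response to stimulation, read on the KI arrays so that neither array compared was used, gave 398 genes (5.88%) induced and 582 (8.6%) lowered at least 2-fold. Of the 145 induced at least 4-fold in KI, 7.59% were lower and 13.1% higher in KO, with a median of 0.16. Of the 5787 that changed less than 2-fold, 2.56% were lower and 2.07% higher. Genes lowered at least 4-fold in KI (77 of them) were lower in KO in 15.6% and higher in 5.19%. No test was made of these shares, and a gene under the floor on both stimulated arrays could not pass 2-fold.

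The KI(LAP) array gave levels on both sides of the pair, with the stimulated WT array shared by both comparisons. Against WT, 325 genes (4.8%) were at least 2-fold lower and 130 (1.92%) higher in stimulated KI. Of the 225 genes lower in KO, 108 were also 2-fold below WT in KI and 1 above, and of the 186 higher in KO, 54 were above and 0 below. Serpinb2, Ptges, Arg1, Slc7a2 and Mgst1 were low in stimulated KO and KI alike, while Marco, Mmp14 and Lmo4 (2005 in KO, 5111 in KI and 5634 in WT cells) were low in KO with KI near WT. Untreated cells differed for Arg1, with 194 in untreated KI, 3674 in untreated KO and 3949 in untreated WT cells. Shared error of the WT array enters all of these counts. Some marker sums also differed between stimulated KI and WT cells: 156 in KI and 1247 in WT for erythroid and 39954 in KI and 25995 in WT for dendritic markers. The erythroid gap was that of Hba-a1 (141 in KI and 1207 in WT), since the other member, Alas2, was under the floor on both arrays. B cell markers summed to 6419 in KI and 6163 in WT, but Blnk alone gave 4263 in KI and 2252 in WT. Of the 9 B cell markers, 2 were at least 2-fold lower in KI and 0 higher, with a median of -0.25. These were Cd79a (302 in KI and 910 in WT) and Ighm (967 in KI and 1964 in WT). The part of cell makeup in the KI levels was not tested.

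Repeat probe sets gave the only check within the arrays. Among 1221 pairs of probe sets of the same gene with the second above the floor, 61.2% had differences of the same sign, and the median gap between them was 0.35 on the log2 scale, with a 90th percentile of 0.94. The brighter of a pair was the one with the higher mean log2 over the 6 arrays. Where it was at least 2-fold lower in KO, the other had the same sign in 24 of 27 pairs (88.9%) and was itself 2-fold lower in 6. Where it was at least 2-fold higher, the other had the same sign in 24 of 32 pairs (75%), was 2-fold higher in 5 and 2-fold lower in 1. Slpi (-1.14 and -2.23), Cxcl1 (-2.59) and F10 (-1.51) were lower by their other probe sets too, and Celf2 (0.88), Cd83 (0.64) and Cd86 (0.58) were higher by less. Probe sets of a gene share the RNA, so these pairs measure the array and not the animals.

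**Figure D5:**
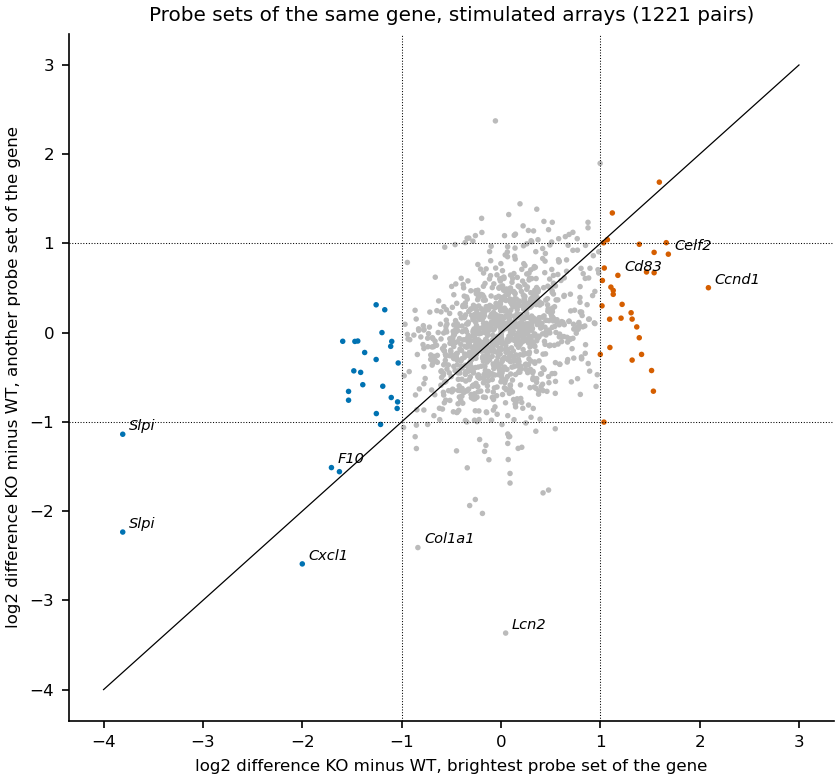
Log2 difference, stimulated KO minus stimulated WT, by another probe set of the gene (vertical) against its brightest probe set (horizontal), 1221 pairs with the other above the floor; the line is equality, dotted lines mark 2-fold, and blue and orange mark genes at least 2-fold lower and higher in KO by the brightest. Brightest means highest mean log2 over the 6 arrays. Slpi, Cxcl1 and F10 are low by both, and Lcn2 lies at the bottom, at 0.05 by its brightest and -3.37 by its other probe set.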

How the data were processed

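RNA from 6 samples, 1 array for each of 3 genotypes in 2 states, was measured on single-colour Affymetrix arrays, per the labels. The deposited table holds linear signal intensity for 12488 probe sets, which per the submitters' processing notes the authors made with MAS5. Its version is not given in the sources used here, nor is its target value; detection calls were not used here. Trimmed means of the arrays lay between 500.3 and 500.4, so no further scaling was done. The 66 control probe sets were left out, values were raised to a floor of 98 (the 40th percentile) and log2 taken, and probe sets above the floor on at least 1 of 6 arrays were kept (9343 of 12422). Of the 12422, 10833 have 1 gene symbol, 396 several and 1193 none; 10817 matched RefSeq GRCm38.p6 by gene identifier. A gene was represented by its probe set of highest mean log2 intensity. A difference of at least 1 in log2 (2-fold) was counted. Named genes were the 20 largest each way among bright genes, a set around C/EBPβ, and up to 6 members or all members past 2-fold of each list; genes outside this were chosen after their values were seen. The members and 60 gene lists were chosen with earlier results of these data known. Alternatives changed the floor, scaling, filter, probe set and fold. The code was tested on simulated data. Python 3.11.15, numpy 2.4.6 and pandas 2.3.3 were used.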

Additional observations from a re-analysis of the deposited data

Results flagged for a closer look

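For 4 of the genes named, KO cells lay at least 2-fold above WT untreated and at least 2-fold below WT after stimulation. Tk1 was at -2.35 on the log2 scale in stimulated cells (93.0 in KO and 501 in WT) and at 2.38 in untreated cells (652 in KO and 125 in WT). Cks1b was at -1.22 stimulated and 1.51 untreated, and Cdk1, the mitotic kinase, at -1.09 stimulated and 1.38 untreated. In stimulated KO cells Tk1 and Cdk1 (48.0) were under the floor and Cks1b (98.0) was at it, so their stimulated differences are lower bounds. Abca1, the cholesterol exporter, was at -1.04 stimulated (401 in KO and 825 in WT) and 1.11 untreated (1052 in KO and 488 in WT). Over all 6767 genes, 10 had these signs with both differences past 2-fold, and 3 had the opposite ones. The 10 were 4.44% of the 225 genes lower in stimulated KO, beside 6.74% of all genes that were higher in untreated KO. The 3 were 1.61% of the 186 genes higher in stimulated KO, beside 4.18% of all genes that were lower in untreated KO. Neither share was above its background. The 46 S phase and mitosis genes as a list, with the D-type cyclins among them, had a median of 0.61 in untreated cells, with 13 higher and 0 lower in KO. Whether the difference changed with stimulation was not tested, since each group has 1 array.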

How the results depend on the processing

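The counts of 303 lower and 241 higher probe sets moved most with the threshold and the floor. They were 65 and 44 at 3-fold, 32 and 12 at 4-fold, 911 and 609 when the floor was the 20th percentile, 104 and 113 when it was the 60th, and 662 and 434 with a pseudocount of 16 and no floor. The 225 lower and 186 higher named genes became 585 and 397, 74 and 97, and 441 and 293 in the last 3 of these settings. Median centring gave 226 and 344, quantile normalization of the 6 arrays 267 and 281 and of the stimulated pair alone 255 and 275, and a floor passed on both stimulated arrays 207 and 186. All 40 genes among the 20 largest each way stayed past 2-fold in each of the 10 settings that measured them, as did 69 of the 110 named genes past 2-fold. The 40 were chosen as bright genes with the largest differences on the same arrays, so this was largely set by the choice and is no independent evidence. Over gene and setting, 3030 of 3141 values kept their sign and side of 2-fold, 71 fell below it, 39 passed it and 1 turned, Saa2 at -0.24 when both stimulated arrays had to be above the floor, which moves it to its other probe set. List medians moved by over 0.25 in 21 of 522 cases. With the mean over probe sets the mesothelial and fibroblast median was -1.11, the neutrophil median -0.57 in place of 0.00 and the dendritic median 0.91. The median of microbial receptors ran from -0.72 to -0.12. No paired analysis was possible because each group has 1 array and no test was made.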

Other observations

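Beyond the 20 largest differences, the next 20 in each direction held 12 lower and 11 higher genes that belong to none of the lists, described here after their values were seen. Htra1, a secreted serine protease, was 3.93-fold lower, with 341 in stimulated KO and 1341 in stimulated WT cells. Bst1, a surface enzyme that makes cyclic ADP-ribose, was 3.41-fold lower at 175 in KO and 596 in WT cells. Ada, adenosine deaminase, was 3.02-fold lower in KO with 185, against 459 in KI and 558 in WT cells. Fgr, a Src-family kinase of myeloid cells, was 2.81-fold lower (613 in KO and 1719 in WT). Fyn, another, was 2.90-fold higher (1158 in KO and 399 in WT), while Blk gave 277 in KO and 271 in WT cells. Cytip, a cytohesin-binding adhesion regulator of leukocytes, had 7157 in KO, 1679 in KI and 2370 in WT cells, 3.02-fold higher in KO and not in KI. Cadm1, a cell adhesion molecule, was 2.91-fold higher stimulated and also higher untreated, with 2281 in untreated KO against 572 in untreated WT cells.

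Among the 10 measured genes on each side of Cebpb in RefSeq gene order on chromosome 2, 2 of 20 were at least 2-fold lower in stimulated KO and 1 higher, beside 4.07% lower and 2.59% higher over the 540 measured genes of that chromosome. The first measured gene after Cebpb is Ptpn1, a tyrosine phosphatase of cytokine receptors, with 1826 in KO and 6423 in WT cells stimulated but 3363 in KO and 2125 in WT cells untreated. The fifth before it is Ptgis, lower in both states (-1.90 stimulated and -2.09 untreated). Znfx1 was the higher one, at 1.04. Whether the targeted allele bears on these genes was not tested.

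Ifi202b, an interferon-inducible gene, had 3726 in stimulated KO, 1.0 in stimulated KI and 3719 in stimulated WT cells. For Igfbp4 the brightest probe set gave a log2 difference of -0.06, KO minus WT, and another gave 2.37, with 508 in KO and 86.2 in WT cells.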
